A study of Danio rerio with 7 samples.

Results

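The 8 genes described here encode digestive enzymes of the exocrine pancreas, a foldase of the same cells, and transcription factors known to control acinar genes. They were taken by their symbols from 29567 genes. The enzymes and the foldase are cel.1, cel.2, amy2a and pdia2, and the regulators are ptf1a, rbpjl, bhlha15 and nr5a2. RNA was sequenced from whole zebrafish larvae with CD36 overexpression, and every group, the control diet included, carried this genotype. CD36 is a cell-surface receptor for fatty acids and lipoproteins. Which promoter drives the transgene is not stated in the labels. The larvae were fed from 5 days post fertilization (dpf) and were labelled as 15 dpf.

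The HFD+CACF group (2 libraries, fish 2 and fish 4) received the high-fat diet (24%) and then CACF at 40 µg/ml in E3 buffer overnight after the last meal. The HFD group (2 libraries, fish 2 and fish 4) received the high-fat diet (24%) without CACF. The Normal diet group (3 libraries, fish 1, fish 2 and fish 4) received the 12% diet without CACF and served as the study's control. All larvae also ate paramecia. What CACF stands for, the hour at which a library was taken, and whether a library is a single larva or a pool are not explained in the labels. Nothing there shows separate clutches or cultures either, so the p-values below reflect spread among 7 libraries that may be technical.

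Acinar cells make up most of the exocrine pancreas and secrete zymogens, amylase and lipases into the gut. Carboxyl ester lipase, the product of cel genes, is activated by bile salts and splits cholesteryl esters, retinyl esters and triglycerides. In mammals the bHLH protein PTF1A and the RBPJ-related protein RBPJL form the PTF1 complex, which binds the promoters of acinar enzyme genes. BHLHA15 (MIST1) and NR5A2 (LRH-1) are further acinar factors in mammals. ptf1a is also known in the hindbrain and retina of zebrafish, and NR5A2 in the liver and intestine of mammals, so RNA of whole larvae does not assign these transcripts to the pancreas.

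The libraries held 12699552 to 22543693 reads, recovered from the deposited normalized counts (reads divided by a size factor per library). Normal diet fish 1 and HFD+CACF fish 2 stood apart from the rest. The median correlation of their log2 values with the other 6 libraries was 0.877 and 0.858, where the other 5 libraries had 0.918 to 0.930. Mitochondrial reads made up 27.9% and 20.3% of the HFD+CACF libraries, 12.98% and 10.3% of the HFD libraries, and 16.6%, 9.26% and 7.06% of the Normal diet libraries. Differences were tested with limma on log2(normalized count + 1) in 20906 genes with at least 10 normalized counts in at least 2 libraries. A gene was called at a Benjamini-Hochberg adjusted p under 0.05 over all of these genes. Of the 8 genes, 6 passed the filter and were tested, and bhlha15 and rbpjl did not.

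The 4 enzyme and foldase genes had their lowest group means in the HFD+CACF larvae. Both HFD+CACF libraries were the lowest of all 7 for cel.1, cel.2 and pdia2 but not for amy2a. The HFD+CACF fish 4 value of amy2a lay above Normal diet fish 2. Of all genes tested, 16.7% lay wholly lower in HFD+CACF than in Normal diet libraries, and 23.2% wholly lower than in HFD libraries. The share that lay below both groups was not computed. In the HFD+CACF larvae the summed normalized count of cel.1, cel.2, amy2a and pdia2 was 47.4 in fish 2 and 138 in fish 4. The same sum was 376 and 646 in the HFD larvae, and 1620.5, 208 and 1114 in the Normal diet larvae (fish 1, 2 and 4). The regulators with enough reads spanned a smaller range. From the lowest to the highest library, ptf1a varied 2.49-fold and nr5a2 4.76-fold, whereas cel.2 varied 16.2-fold, pdia2 32.0-fold, cel.1 41.0-fold and amy2a 338-fold. The lowest values of amy2a and pdia2 rested on 2 and 4 reads, so the sizes of these ratios are imprecise. In whole larvae, fewer acinar cells and less RNA per acinar cell cannot be told apart.

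**Figure D1:**
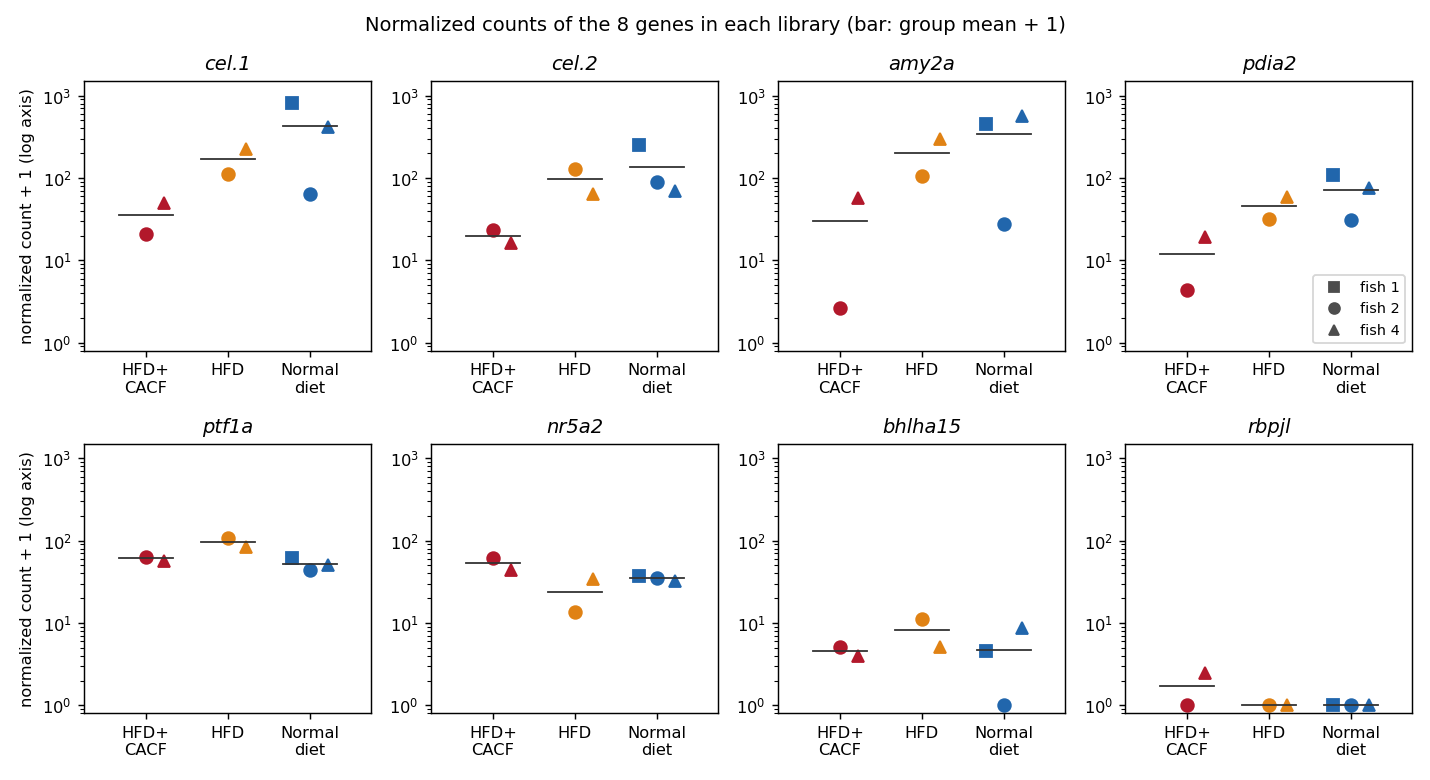
Normalized count plus 1 (log axis) of each of the 8 genes in the HFD+CACF, HFD and Normal diet libraries. Squares are fish 1, circles fish 2 and triangles fish 4, and bars are group means plus 1. For cel.1, cel.2, amy2a and pdia2 the HFD+CACF points lie lowest, except that amy2a of HFD+CACF fish 4 (56.3) lies above Normal diet fish 2 (26.8).

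cel.1 (ENSDARG00000017490) lies on the plus strand of GRCz11 chromosome 21, from 11401247 to 11411365. It had 19.95 and 48.3 normalized counts in the HFD+CACF libraries (fish 2 and 4), 111 and 226 in the HFD libraries, and 819, 63.3 and 409 in the Normal diet libraries (fish 1, 2 and 4). Both HFD+CACF libraries lay below all other libraries, and Normal diet fish 2 lay below both HFD libraries. The mean was 34.1 ± 20.02 in HFD+CACF larvae (SD, n = 2), 169 ± 81.6 in HFD larvae (n = 2) and 430.4 ± 378 in Normal diet larvae (n = 3).

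cel.2 (ENSDARG00000029822) is its neighbour on the same strand of chromosome 21, from 11385031 to 11393979, and its end lies 7268 bases before the start of cel.1. cel.2 had 22.4 and 15.4 normalized counts in the HFD+CACF libraries, 129 and 63.0 in the HFD libraries, and 249, 88.6 and 68.3 in the Normal diet libraries. Both HFD+CACF libraries were again below all others, and the HFD and Normal diet ranges overlapped. The mean of cel.2 was 18.9 ± 5.01 in HFD+CACF larvae, 95.9 ± 46.5 in HFD larvae and 135 ± 98.8 in Normal diet larvae (SD, n = 2, 2 and 3). How reads shared between these related genes were assigned is not stated in any source at hand, so the split between them is uncertain.

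amy2a (ENSDARG00000013856; chromosome 2, plus strand, 15612755 to 15626972) encodes pancreatic alpha-amylase, which cleaves starch. It had 1.66 and 56.3 normalized counts in the HFD+CACF libraries, 106 and 299 in the HFD libraries, and 446, 26.8 and 562 in the Normal diet libraries. The value of HFD+CACF fish 2 rested on 2 reads. HFD+CACF fish 4 lay above Normal diet fish 2, so these groups overlapped, while both HFD+CACF libraries lay below both HFD libraries.

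pdia2 (ENSDARG00000018263; chromosome 1, plus strand, 9954489 to 9966195) encodes a protein disulfide isomerase, known in mammals as the pancreas-specific form that helps secretory proteins to fold. It had 3.33 and 18.3 normalized counts in the HFD+CACF libraries, 30.6 and 57.9 in the HFD libraries, and 106, 29.8 and 75.1 in the Normal diet libraries. Both HFD+CACF libraries lay below all 5 others. The value of HFD+CACF fish 2 rested on 4 reads.

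ptf1a (ENSDARG00000014479; chromosome 2, plus strand, 29710857 to 29711761) encodes the bHLH subunit of PTF1. It had 63.2 and 56.3 normalized counts in the HFD+CACF libraries, 106 and 82.7 in the HFD libraries, and 60.6, 42.4 and 49.8 in the Normal diet libraries. The HFD libraries were the highest, above both other groups, and the HFD+CACF and Normal diet libraries overlapped.

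nr5a2 (ENSDARG00000100940; chromosome 22, minus strand, 22634007 to 22719440) encodes a nuclear receptor that, in mammals, also controls bile acid synthesis genes. It had 60.7 and 43.2 normalized counts in the HFD+CACF libraries, 12.8 and 33.1 in the HFD libraries, and 36.0, 34.2 and 31.2 in the Normal diet libraries. Both HFD+CACF libraries lay above all others, unlike for the enzymes, and HFD fish 2 was the lowest. Of all genes tested, 16.3% lay wholly higher in HFD+CACF than in Normal diet libraries, and 24.8% wholly higher than in HFD libraries.

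bhlha15 (ENSDARG00000045166; chromosome 12, plus strand, 17754859 to 17756905) encodes Mist1, which in mammals maintains the secretory architecture of acinar cells. It had 34 reads in all, with 4.16 and 2.93 normalized counts in the HFD+CACF libraries, 10.2 and 4.13 in the HFD libraries, and 3.52, 0 and 7.59 in the Normal diet libraries. All 3 groups overlapped. rbpjl (ENSDARG00000074148; chromosome 6, minus strand, 52757433 to 52796212), the acinar partner of ptf1a, had 2 reads in HFD+CACF fish 4 and 0 in each of the other 6 libraries. A count of 0 allows up to 3 reads in a library, for counting error only. A difference of a few reads per library in rbpjl was thus not detectable at this depth.

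Levels of different genes were read on the deposited TPM scale (a length-scaled transcript abundance), which did not closely follow reads per length. amy2a and ptf1a had 83 reads each in HFD fish 2 and 77 each in HFD+CACF fish 4. Their TPM was 7.88 and 7.35 in the first library but 2.89 and 5.20 in the second. The order of genes on this scale is therefore uncertain. In the HFD+CACF libraries ptf1a was the highest of the 8 genes, with 4.74 and 5.20 TPM, against 0.0641 and 2.89 TPM for amy2a. In the HFD libraries amy2a was the highest, with 7.88 and 11.9 TPM, and ptf1a had 7.35 and 5.47 TPM. Among the Normal diet libraries, cel.1 led in fish 1 (20.3 TPM) and amy2a in fish 4 (21.8 TPM), whereas ptf1a led in fish 2 (3.77 TPM, against 1.47 TPM for amy2a). The median TPM over the 7 libraries was 7.88 for amy2a, 4.74 for ptf1a, 2.88 for cel.2, 2.28 for cel.1, 0.674 for pdia2, 0.531 for nr5a2 and 0.172 for bhlha15. The ranges of amy2a, ptf1a, cel.2 and cel.1 overlapped, so their order is not larger than the spread between libraries.

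The comparison of HFD+CACF with Normal diet asks what separated CACF-exposed larvae on the high-fat diet from the study's control. cel.1 was 8.67-fold, cel.2 5.91-fold, amy2a 15.5-fold and pdia2 6.91-fold lower in HFD+CACF larvae on the log2(count + 1) scale, but none passed the adjusted threshold. The log2 fold change of cel.2 was -2.56 ± 0.61 (SE; 95% interval -3.95 to -1.18; limma adjusted p = 0.187). For pdia2 it was -2.79 ± 0.79 (-4.59 to -0.99; limma adjusted p = 0.241) and for cel.1 -3.12 ± 0.95 (-5.28 to -0.96; limma adjusted p = 0.263). amy2a had the widest interval, at -3.95 ± 1.51 (-7.39 to -0.52; limma adjusted p = 0.321). ptf1a differed by 0.24 ± 0.38 (-0.63 to 1.1; limma adjusted p = 0.800) and nr5a2 by 0.59 ± 0.53 (-0.63 to 1.80; limma adjusted p = 0.640).

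In this comparison limma called 0 of the 6 tested genes, where it called 31 of 20906 genes (0.148%), all lower. An unadjusted p under 0.05 was reached by 4 of the 6, all lower, where 13.7% of all genes reached it, 8.59% lower and 5.14% higher. The HFD+CACF libraries lay wholly below the Normal diet libraries for 3 of the 6 (cel.1, cel.2 and pdia2), against 16.7% of all genes, and wholly above for nr5a2, against 16.3% of all genes. The median log2 fold change of the 4 enzyme and foldase genes was -2.95, and that of all genes tested was -0.00054.

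The call depended on the test. On recovered reads edgeR called 0 of the 6 genes (0.0191% of all genes). DESeq2 called cel.1 (adjusted p = 0.000196), cel.2 (adjusted p = 0.00175) and pdia2 (adjusted p = 0.0253). It called 3.65% of the 18376 genes to which it gave an adjusted p, 2.95% being lower. For DESeq2 and the authors' table, shares of all genes here and below are over the genes with an adjusted p, not over the 20906 genes. In the authors' deposited table, which calls 1.34% of genes (1.08% lower), pdia2 had a log2 fold change of -2.69 (SE 0.759, adjusted p = 0.0374) and amy2a one of -3.57 (SE 1.03, adjusted p = 0.0447). In the authors' deposited table cel.1 (-3.66, adjusted p = 0.132) and cel.2 (-2.84, adjusted p = 0.235) did not pass, and the adjusted p was 0.981 for ptf1a, 0.781 for nr5a2 and 1 for bhlha15. Without HFD+CACF fish 2 the limma log2 fold change was -1.74 for amy2a, -1.71 for pdia2, -2.50 for cel.1 and -2.82 for cel.2. Without HFD+CACF fish 4 it was -6.17 for amy2a, -3.87 for pdia2, -3.73 for cel.1 and -2.30 for cel.2. Without Normal diet fish 2 it was -5.34 for amy2a, -3.31 for pdia2, -4.17 for cel.1 and -2.75 for cel.2. Without Normal diet fish 1 and HFD+CACF fish 2 together, the values were -1.13 for amy2a, -1.33 for pdia2, -1.72 for cel.1 and -2.27 for cel.2. On log2(TPM + 1) the values for HFD+CACF against Normal diet were -2.22 for amy2a, -1.57 for cel.2 and -0.83 for pdia2, whose TPM lay near or below 1.

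**Figure D2:**
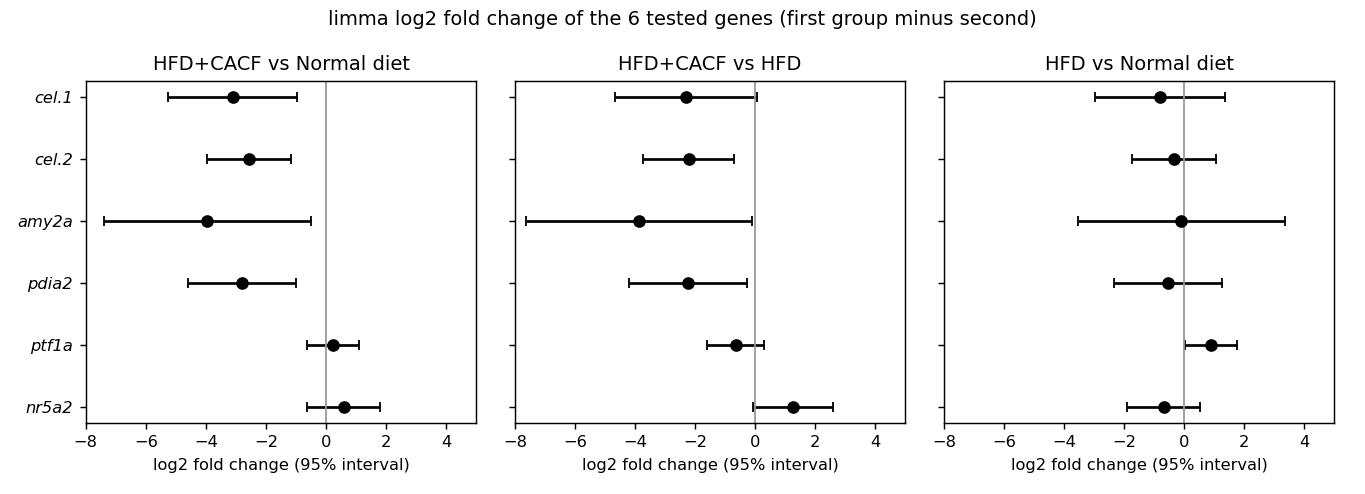
limma log2 fold changes of the 6 tested genes in the 3 comparisons, first group minus second, with 95% intervals. Points of cel.1, cel.2, amy2a and pdia2 lie left of 0 in both HFD+CACF comparisons, and the intervals of all but cel.1 against HFD (-4.68 to 0.06) stay below 0 there, before any adjustment over genes.

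The comparison of HFD+CACF with HFD sets CACF-exposed larvae against larvae on the same high-fat diet. All 4 enzyme and foldase genes were lower in both HFD+CACF libraries than in both HFD libraries. The log2 fold change was -3.86 ± 1.65 for amy2a (SE; 95% interval -7.62 to -0.09; limma adjusted p = 0.302) and -2.31 ± 1.04 for cel.1 (-4.68 to 0.06; limma adjusted p = 0.326). It was -2.24 ± 0.87 for pdia2 (-4.21 to -0.27; limma adjusted p = 0.261) and -2.22 ± 0.67 for cel.2 (-3.74 to -0.70; limma adjusted p = 0.175). Of the regulators, nr5a2 was 1.27 ± 0.58 higher (-0.06 to 2.6; limma adjusted p = 0.335). ptf1a was lower in both HFD+CACF libraries, with a log2 fold change of -0.64 ± 0.42 (-1.59 to 0.31; limma adjusted p = 0.506).

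Here limma called 0 of the 6 genes and 3 of all 20906 genes (0.0143%). An unadjusted p under 0.05 was reached by 3 of the 6, all lower, where 15.9% of all genes reached it, 6.24% lower and 9.71% higher. The libraries did not overlap for any of the 6: 5 were lower, where 23.2% of all genes were, and nr5a2 was higher, as were 24.8% of all genes. edgeR called 0 of the 6 and 0 of all genes, and DESeq2 called cel.2 (adjusted p = 0.0279) and 4.81% of all genes, 1.2% being lower. The median log2 fold change was -2.28 for the 4 enzyme and foldase genes and -0.01 for all genes tested. Without HFD+CACF fish 2 the limma log2 fold change was -1.64 for amy2a, -1.16 for pdia2, -1.69 for cel.1 and -2.48 for cel.2. Without HFD+CACF fish 4 it was -6.07 for amy2a, -3.32 for pdia2, -2.93 for cel.1 and -1.96 for cel.2. That of nr5a2 was 0.62 without HFD fish 2 and 1.92 without HFD fish 4. On log2(TPM + 1) the values were -2.40 for amy2a, -1.34 for cel.2 and -0.54 for pdia2.

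The comparison of HFD with Normal diet sets the high-fat diet against the 12% diet, both without CACF. The enzyme genes overlapped between the diets, with log2 fold changes of -0.80 ± 0.95 for cel.1, -0.34 ± 0.61 for cel.2, -0.10 ± 1.51 for amy2a and -0.55 ± 0.79 for pdia2 (SE; limma adjusted p 0.856 to 0.991). The 95% interval of amy2a ran from -3.53 to 3.34, wide enough to hold a several-fold difference in either direction. nr5a2 had a log2 fold change of -0.68 ± 0.53 (limma adjusted p = 0.791). ptf1a was higher in both HFD libraries than in all Normal diet libraries, as were 11.5% of all genes, with a log2 fold change of 0.88 ± 0.38 (95% interval 0.01 to 1.74; limma adjusted p = 0.785).

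For HFD against Normal diet limma called 0 of the 6 genes and 0 of all 20906 genes (0%), and edgeR and DESeq2 also called 0 (0%). An unadjusted p under 0.05 was reached by ptf1a alone of the 6, which was higher, where 6.04% of all genes reached it, 4.67% lower and 1.37% higher. In the authors' deposited table, which calls 0.281% of genes in this comparison (0.215% lower), the adjusted p was 1 for the 7 of the 8 genes that have one. The direction of cel.2 and amy2a was not stable: without Normal diet fish 1 the log2 fold changes were 0.21 and 0.52. The other values moved with single libraries as well. That of nr5a2 was -0.03 without HFD fish 2 and -1.34 without HFD fish 4, and that of cel.1 was -0.03 without Normal diet fish 1 but -1.86 when fish 2 of that diet was left out. For cel.1 it was also -0.29 without HFD fish 2, -1.32 without HFD fish 4 and -0.53 without Normal diet fish 4. For pdia2 it was -0.10 and -0.998 without HFD fish 2 and fish 4, and -0.17 and -1.07 without Normal diet fish 1 and fish 2. Both comparisons with the Normal diet group share its 3 libraries, and both comparisons with HFD+CACF share its 2 libraries, so the 3 sets of values are not independent of each other.

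The balance of the 2 carboxyl ester lipase genes separated the libraries by fish number within every group. So did the summed normalized count of cel.1, cel.2, amy2a and pdia2, which was lowest in fish 2 of every group. In fish 2 this sum was 47.4 in HFD+CACF, 376 in HFD and 208 in Normal diet larvae. cel.1 made up 47.1% of the cel.1 and cel.2 reads in HFD+CACF fish 2 (24 of its reads were cel.1 and 27 cel.2; 95% Clopper-Pearson interval 32.9 to 61.5) and 75.9% in HFD+CACF fish 4 (65.5 to 84.4). It made up 46.3% in HFD fish 2 (39.0 to 53.7) and 78.2% in HFD fish 4 (72.9 to 82.9). In the Normal diet libraries it made up 76.7% in fish 1 (74.2 to 79.1), 41.7% in fish 2 (34.8 to 48.8) and 85.7% in fish 4 (82.5 to 88.5). All 3 fish 2 libraries thus lay below 50% and the other 4 above 75%, in every group, and the intervals cover counting error only. This split was noticed after the values were seen, and the labels do not say what a shared fish number stands for.

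On the TPM scale, which did not closely follow reads per length, the same split was seen. The ratio of cel.1 to cel.2 TPM was 0.523 and 1.74 in HFD+CACF fish 2 and 4, 0.540 and 2.73 in HFD fish 2 and 4, and 3.26, 0.396 and 4.48 in Normal diet fish 1, 2 and 4. Within fish 4, where all groups have a library, cel.2 had 15.4 normalized counts in HFD+CACF, 63.0 in HFD and 68.3 in Normal diet larvae. Within fish 2, cel.2 had 22.4 normalized counts in HFD+CACF, 129 in HFD and 88.6 in Normal diet larvae. HFD+CACF was the lowest within both fish numbers, which follows from both its libraries lying below all others for cel.2 and adds no separate check.

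**Figure D3:**
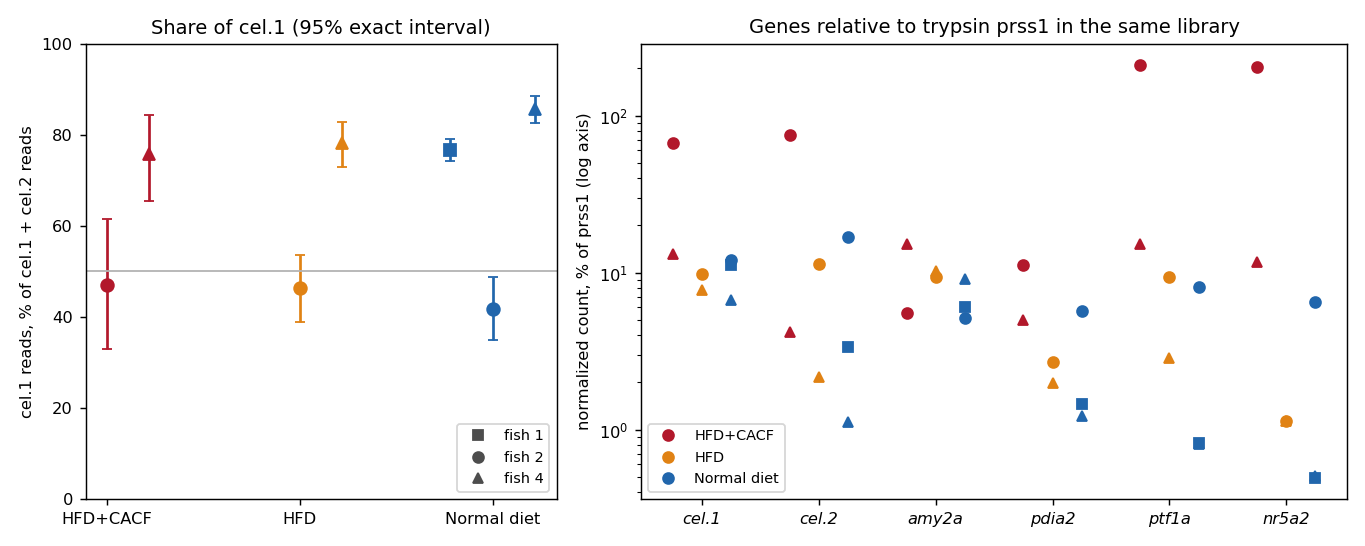
Left, cel.1 reads as a percentage of cel.1 plus cel.2 reads in each library with 95% exact binomial intervals. Right, normalized counts of 6 genes as a percentage of trypsin prss1 in the same library (log axis, colours by group, shapes by fish number as on the left). Circles (fish 2) lie below 50% on the left in every group. On the right the HFD+CACF fish 2 circles lie highest for every gene but amy2a. prss1 itself was lowest in that library (29.9 normalized counts).

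Other acinar genes were read from a list of secreted enzymes and their partners. Of 33 listed symbols, 22 were matched, to 23 genes, and 19 genes were tested. Their summed normalized count was 182 and 2269 in the HFD+CACF libraries, 5103 and 13924 in the HFD libraries, and 31414, 2243 and 28317 in the Normal diet libraries. HFD+CACF fish 2 had the lowest sum, and HFD+CACF fish 4 was close to Normal diet fish 2. HFD+CACF fish 2 and HFD fish 2 each had 7 of the 23 genes at 0, and the other libraries had 0 to 4. The trypsin gene prss1 had 29.9 and 369 normalized counts in HFD+CACF, 1132 and 2906 in HFD, and 7356, 524 and 6147 in Normal diet larvae. The trypsin-family gene prss59.2 had 23.3 and 229.6 normalized counts in HFD+CACF, 518 and 1556 in HFD, and 4426, 227 and 4250 in Normal diet larvae.

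limma called 0 of the 19 genes in each comparison, and at most 0.148% of all genes. An unadjusted p under 0.05 was reached by 13 for HFD+CACF against Normal diet, where 13.7% of all genes reached it. It was reached by 11 for HFD+CACF against HFD (against 15.9% of all genes) and 1 for HFD against Normal diet (against 6.04%). DESeq2 called 5 lower for HFD+CACF against Normal diet (cpa5, ctrb1, prss1, prss59.1 and prss59.2), where it called 3.65% of all genes, 2.95% lower. It called 0 for HFD+CACF against HFD, where it called 4.81% of all genes, and 0 for HFD against Normal diet (0%). edgeR called 0 of the 19 in each comparison, and at most 0.0191% of all genes. Against the Normal diet all 19 had a negative log2 fold change in HFD+CACF larvae, with a median of -3.66 and a largest size of -4.93 for the elastase gene cela1.6. The HFD+CACF libraries lay wholly below the Normal diet libraries for 7 of the 19, against 16.7% of all genes. Against HFD, 17 of 19 were negative in HFD+CACF larvae, with a median of -3.28, and 13 lay wholly below, against 23.2% of all genes. For HFD against Normal diet 16 of 19 were negative, with a median of -0.42, and 1 lay wholly below, against 14.1% of all genes. The sum of this list, cel.1, amy2a and pdia2 were thus all lowest in HFD+CACF fish 2. All had their highest values in Normal diet fish 1 and fish 4. cel.2 differed, with its lowest value in HFD+CACF fish 4 (15.4 normalized counts). Its Normal diet fish 4 value (68.3) lay below that of Normal diet fish 2 (88.6).

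Relative to prss1 in the same library, the enzyme genes held different shares. amy2a was 5.56% and 15.3% of prss1 in the HFD+CACF libraries, 9.35% and 10.3% in the HFD libraries, and 6.07%, 5.11% and 9.14% in the Normal diet libraries, with overlapping groups. cel.1 was 66.7% and 13.1% of prss1 in HFD+CACF, 9.80% and 7.79% in HFD, and 11.1%, 12.1% and 6.65% in Normal diet larvae. The HFD+CACF libraries lay above all others for cel.1, and the fish 2 value rested on 36 reads of prss1. cel.2 was 75% and 4.17% of prss1 in HFD+CACF, 11.4% and 2.17% in HFD, and 3.38%, 16.9% and 1.11% in Normal diet larvae, and these ranges overlapped. The foldase pdia2 was 11.1% and 4.96% of prss1 in HFD+CACF, 2.70% and 1.99% in HFD, and 1.45%, 5.68% and 1.22% in Normal diet larvae, with HFD+CACF fish 4 below Normal diet fish 2. For ptf1a the percentage was 211 and 15.3 in HFD+CACF, 9.35 and 2.84 in HFD, and 0.824, 8.10 and 0.810 in Normal diet larvae. Both HFD+CACF libraries thus lay above all others for ptf1a. prss1 was itself lowest in the HFD+CACF libraries (29.9 and 369 normalized counts), which raises any share of it there. The order of the libraries for cel.1 and ptf1a is therefore no separate result on these genes.

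Genes were ranked by how closely their log2 values followed the mean profile of cel.1, cel.2, amy2a and pdia2 over the 7 libraries. Of 14434 genes with a mean of at least 50 normalized counts, the 5 most alike were cpa5 (Pearson r = 0.993), a carboxypeptidase gene, ctrb1 (r = 0.992), a chymotrypsinogen gene, prss1 (r = 0.991), atp1a1a.4 (r = 0.991), a sodium-potassium pump subunit, and ros1 (r = 0.991), a receptor tyrosine kinase gene. The 14 acinar list genes in this ranking had r of 0.844 to 0.993 (median 0.972, against -0.00296 over all ranked genes), and 8 were among the top 50. These are descriptions over 7 libraries, and all genes of a library share its depth and scaling. The profile's own genes had r of 0.984 (pdia2), 0.978 (cel.1), 0.958 (amy2a) and 0.779 (cel.2), each being part of it. Outside it, r was 0.233 for bhlha15, 0.093 for ptf1a and -0.469 for nr5a2. Between ptf1a and nr5a2, r was -0.595.

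Regulators related to ptf1a and nr5a2 were read from a list of PTF1 partners and pancreas transcription factors, of which 19 of 20 were tested. limma called 0 of them in HFD+CACF against Normal diet, HFD+CACF against HFD and HFD against Normal diet. In this order 1, 2 and 1 of them had an unadjusted p under 0.05, against 13.7%, 15.9% and 6.04% of all genes. edgeR called 0, and DESeq2 called gata6 alone, lower in HFD+CACF than on the Normal diet, as were 2.95% of all genes. In HFD+CACF larvae 10 were lower and 9 higher than on the Normal diet (median log2 fold change -0.06), and 9 were lower and 10 higher than on HFD (median 0.02). For HFD against Normal diet the median was 0.05. xbp1, a factor of the unfolded protein response and of secretory cells, had 2468 and 1351 normalized counts in HFD+CACF, 1879 and 1925 in HFD, and 4513, 1836 and 1472 in Normal diet larvae. tcf3b and tcf12, which encode E proteins of the class that pairs with PTF1A, had log2 fold changes of -0.25 and -0.54 for HFD+CACF against Normal diet (limma adjusted p = 0.705 and 0.392).

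The general folding and secretion machinery was read beside pdia2. Of 33 listed endoplasmic reticulum genes 32 were tested, and limma, edgeR and DESeq2 called 0 in each comparison. A limma unadjusted p under 0.05 was reached by 5, 4 and 2 genes in the same order, against 13.7%, 15.9% and 6.04% of all genes. The median log2 fold change was 0.07 for HFD+CACF against Normal diet (15 lower, 17 higher), 0.24 for HFD+CACF against HFD (12 lower, 20 higher) and 0.01 for HFD against Normal diet (15 lower, 17 higher). hspa5, the main chaperone of this compartment, had 3862 and 1324 normalized counts in HFD+CACF, 1513 and 1567 in HFD, and 5701, 1163 and 1265 in Normal diet larvae. Both libraries that stood apart, HFD+CACF fish 2 and Normal diet fish 1, were the highest for hspa5.

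Bile acid and cholesterol genes, several of which NR5A2 binds in mammals, were read beside nr5a2. Of 17 listed genes 15 were matched and 13 tested, and limma called 0 in each comparison. An unadjusted p under 0.05 was reached by 4, 1 and 0 genes, against 13.7%, 15.9% and 6.04% of all genes. edgeR called 0. DESeq2 called the bile acid transporter gene slc10a2 alone, lower in HFD+CACF than on the Normal diet, as were 2.95% of all genes. For HFD+CACF against Normal diet 11 were lower and 2 higher (median -0.96), for HFD+CACF against HFD 10 were lower and 3 higher (median -0.64), and for HFD against Normal diet 7 were lower and 6 higher (median -0.20). The ileal bile acid binding gene fabp6 had 154 and 1541 normalized counts in HFD+CACF, 4214 and 1057 in HFD, and 2679, 2509 and 3671 in Normal diet larvae. The lipoprotein gene apoa1a had 747 and 669.9 normalized counts in HFD+CACF, 2531 and 2694 in HFD, and 10819, 231 and 1031 in Normal diet larvae. Its relative apoa1b had 8279 and 6782 in HFD+CACF, 5523 and 15516 in HFD, and 14295, 2327 and 12577 in Normal diet larvae. For HFD+CACF against Normal diet the log2 fold change was -2.58 for fabp6, -0.96 for apoa1a and 0.002 for apoa1b (limma adjusted p = 0.293, 0.752 and 0.997).

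Markers of other cell types were measured beside the enzyme genes, and their part in the results was not tested. The 13 matched enterocyte markers, none of them at 0 in any library, summed to 1232 and 1369 normalized counts in HFD+CACF, 6407 and 6238 in HFD, and 42381, 1173 and 3302 in Normal diet larvae. All 13 had negative log2 fold changes for HFD+CACF against Normal diet (median -2.74, 8 without overlap) and against HFD (median -2.89, 12 without overlap). Of all genes, 16.7% lay wholly lower in the first comparison and 23.2% in the second. limma and edgeR called 0 markers, with a limma unadjusted p under 0.05 for 5, 4 and 0 (against 13.7%, 15.9% and 6.04% of all genes). DESeq2 called anpepa and chia.1 lower in HFD+CACF than on the Normal diet, as were 2.95% of all genes. For HFD against Normal diet 6 were lower and 7 higher (median 0.14). In the enterocyte sum Normal diet fish 2 lay near the HFD+CACF libraries. Normal diet fish 1 was the highest, as in the sum of cel.1, cel.2, amy2a and pdia2. The chitinase gene chia.2 had 93.1 and 279 normalized counts in HFD+CACF, 2597 and 1452 in HFD, and 16012, 278 and 630.0 in Normal diet larvae.

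Hepatocyte markers (12 genes, none at 0 in any library) summed to 11942 and 14471 normalized counts in HFD+CACF, 14331 and 22089 in HFD, and 26893, 6711 and 20931 in Normal diet larvae. Their median log2 fold change was -0.50 for HFD+CACF against Normal diet, -0.55 for HFD+CACF against HFD and 0.31 for HFD against Normal diet. Islet markers, of which 9 of 10 were tested and 0 to 2 were at 0 in a library, summed to 7955 and 9413 in HFD+CACF, 9760 and 10035 in HFD, and 7108 to 10554 in Normal diet larvae (medians -0.17, -0.57 and 0.08 in the same order of comparisons). neurod1 alone had 4249 and 5612 of the HFD+CACF sums, and RNA of whole larvae does not assign it to the islets. Single islet markers ranged from -3.20 to 0.25 for HFD+CACF against Normal diet. Duct markers (6 genes) had medians of 0.01, 0.03 and 0.17, muscle markers (7 genes) of -0.53, -0.17 and -0.31, and neuron and glia markers (6 genes) of 0.23, 0.28 and -0.13, with none at 0 in any library. limma and edgeR called 0 genes of these 5 lists in each comparison. For HFD+CACF against Normal diet, 2 of 9 islet and 2 of 6 neuron and glia genes had a limma unadjusted p under 0.05. So had 1 duct, 1 muscle and 0 hepatocyte genes, against 13.7% of all genes. For HFD+CACF against HFD 1 hepatocyte, 1 duct and 1 neuron and glia gene reached it, against 15.9% of all genes. For HFD against Normal diet 1 neuron and glia gene did, against 6.04%. DESeq2 called the glucagon gene gcga lower for HFD+CACF against Normal diet, where it called 3.65% of all genes, 2.95% lower. It called the neuronal gene elavl3 higher for HFD+CACF against HFD, where it called 4.81% of all genes, 1.2% being lower. The genes gcga, elavl3, gata6, slc10a2, anpepa and prss59.1 are named for having been called, after their values were seen.

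**Figure D4:**
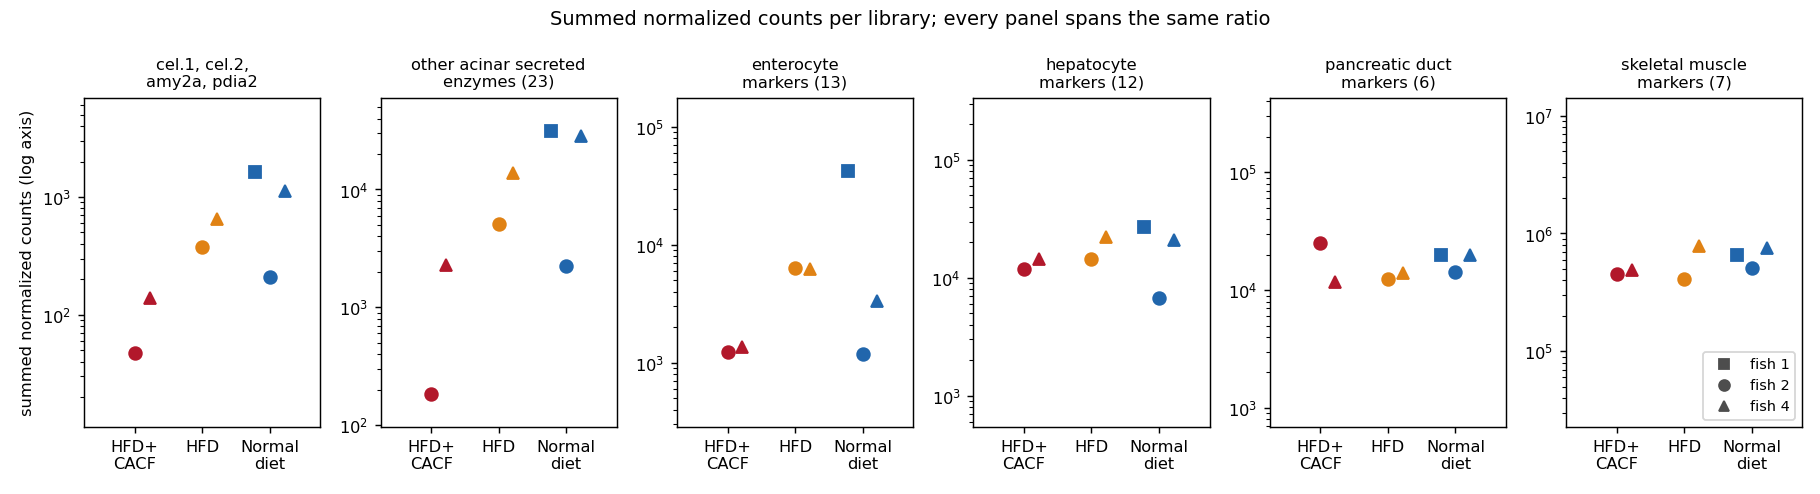
Summed normalized counts per library (log axes, each spanning the same ratio) of the 4 enzyme and foldase genes, the other acinar secreted enzymes, and the enterocyte, hepatocyte, duct and muscle marker lists. The duct sum is mostly krt4 (23582 of 24968 in HFD+CACF fish 2), which RNA of whole larvae does not assign to the ducts. Squares are fish 1, circles fish 2 and triangles fish 4. The enzyme sums reach from 47.4 in HFD+CACF fish 2 to 1620.5 in Normal diet fish 1, and the enterocyte sums from 1173 in Normal diet fish 2 to 42381 in Normal diet fish 1, whereas the muscle sums lie between 410604 and 778061.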

How the data were processed

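Per the labels' protocols, the 7 libraries were stranded mRNA preparations from whole larvae. The submitters' processing notes name FastQC, Trimmomatic, HISAT2 and DESeq2 and give no versions. File names carry the build GRCz11. Neither the read counter nor its use of strand is known from the sources at hand, so antisense reads may not have been told apart.

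The authors deposited 2 tables of 29567 genes. Per the file headers these hold a normalized count (signal) per library, a log2 fold change with its standard error, the score of a Wald test, and its p-value before and after adjustment. Of the deposited normalized counts, 100% were whole multiples (within 0.001) of a step per library, which gave back the reads. Both tables hold the same values for the 3 Normal diet libraries. The authors also deposited coverage, FPKM and TPM per gene and library, per the file headers. FPKM and coverage were not used. The TPM of assembled loci sums to 1000000 and that of reference genes adds 739551 to 884988, so the normalized counts were preferred for tests.

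Genes with at least 10 normalized counts in at least 2 libraries (20906) were fitted with limma 3.58.1 (R 4.3.3, variance trend) on log2(normalized count + 1), 1 mean per group over all 7 libraries, two-sided, with Benjamini-Hochberg adjustment at 0.05. This pseudocount understates fold changes of low genes. The script was tested on simulated data. Named were the 8 genes, the most abundant 3 of each list (some of them printed) and the 5 genes most like the enzymes. The genes and lists were chosen with earlier results of these data known.

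Alternatives were pseudocounts of 0.5 and 5, no filter and one of 50, TMM and quantile scaling, TPM, robust moderation, a block for fish number, a fit of the compared groups, leaving out each library, and edgeR 4.0.16 and DESeq2 1.42.0 on the recovered reads. edgeR called 0, 4 and 0 genes and DESeq2 0, 671 and 960 genes for HFD against Normal diet, HFD+CACF against Normal diet and HFD+CACF against HFD. In this order DESeq2 gave an adjusted p to 27436, 18376 and 19975 genes. The authors' tables gave one to 21375 genes for HFD and 20803 for HFD+CACF, each against Normal diet. A fit without Normal diet fish 1 and HFD+CACF fish 2 was added after seeing the data.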

Additional observations from a re-analysis of the deposited data

How the results depend on the processing

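For HFD+CACF against Normal diet, where limma called 31 genes, 14 were called on TPM, 52 with robust moderation, 2 with the compared groups only, 4 by edgeR and 671 by DESeq2. Without Normal diet fish 1 and HFD+CACF fish 2, an alternative chosen after seeing the data, 5 were called, and leaving out 1 library gave 0 (without Normal diet fish 4) to 372 (without HFD+CACF fish 4). For HFD+CACF against HFD, where limma called 3 genes, 1 was called on TPM, 5 with robust moderation, 0 with the compared groups only, 0 by edgeR and 960 by DESeq2, and leaving out 1 library gave 0 to 154 (without HFD+CACF fish 4). Of the 8 genes, DESeq2 called 3 for HFD+CACF against Normal diet (cel.1, cel.2 and pdia2) and 1 for HFD+CACF against HFD (cel.2), while leaving out any 1 library called 0 in the 3 comparisons.

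With the fish number as a replicate block limma called 112 genes for HFD+CACF against Normal diet, of which 101 were lower. With this block it called 705 genes for HFD+CACF against HFD, among them amy2a, cel.1 and cel.2 (limma adjusted p = 0.0378, 0.0434 and 0.0378), so 3 of the 8 genes. The groups share only the numbers 2 and 4, which the labels do not explain. Deviations of same-numbered libraries from their group means correlated at 0.183 to 0.416 over 6 pairs, those of other pairs at -0.416 to 0.196 over 10 pairs, and each comparison has only 2 such pairs. In a group of 2 the deviations mirror each other, so both pairs of HFD+CACF with HFD give a single value (0.269). With so few pairs the numbers were not taken to pair the libraries.

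For HFD against Normal diet cel.2 reversed to a log2 fold change of 0.21 with the block and without both libraries that stood apart, and leaving out 1 library gave -0.85 to 0.21. amy2a reversed to 0.18 on TPM and to 0.52 with the block and without both libraries, and leaving out 1 library gave -1.49 to 0.68. The cause was not tested. The other 16 log2 fold changes of the tested genes kept their direction under every alternative that was run, and nr5a2 was not tested on TPM or with a filter of 50 normalized counts. Where 1 library of a group of 2 was left out, the other was assumed to vary like the other groups. Counts as low as 2 reads for amy2a and 4 for pdia2, both in HFD+CACF fish 2, limit the precision of their fold changes.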

Other observations

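The nuclear receptor corepressor gene nr0b2a, chosen after its values were seen, had 7.48 and 12.4 normalized counts in HFD+CACF, 31.9 and 51.7 in HFD, and 58.9, 20.8 and 39.6 in Normal diet larvae. In mammals its product, SHP, acts downstream of bile acid sensing and binds NR5A2. Both HFD+CACF libraries lay below all others, while nr5a2 had its highest values there. Against the Normal diet libraries, 16.7% of all genes lay wholly lower in HFD+CACF and 16.3% wholly higher. Against HFD these shares were 23.2% and 24.8%. limma did not call nr0b2a in any comparison, and a relation of the 2 genes was not tested.

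In the deposited abundance files a single assembled locus on the same strand spanned ptf1a in all 7 libraries. In Normal diet fish 1 a single locus spanned cel.1, cel.2 and amy2a each, whereas HFD+CACF fish 2 had no assembled locus over cel.1, amy2a or pdia2. No library had a locus over bhlha15 or rbpjl.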
